A study of Mus musculus with 6 samples.

Results

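The phosphoinositide 3-kinase (PI3K), AKT, mTOR and FOXO pathway was followed in mouse mammary tumors as a fixed set of 38 named genes, of which 37 were measured, out of 19937 genes measured in all. The genes were chosen by name, as core parts of the pathway or as genes that FOXO transcription factors are known to regulate, and each was represented by the probe set that names that gene alone and has the highest mean over the 6 arrays. Rps6kb1, which encodes the S6 kinase, has no such probe set and is not analysed here. Of the measured genes, 30 are components of the pathway and 7 are FOXO-regulated genes.

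The tumors grew from 4T1 cells, a mouse mammary carcinoma line, after 750000 cells were injected into a mammary gland of Balb/C mice. The water group is 3 tumors from mice given water by mouth, and the TKI258 group is 3 tumors from mice given 40 mg/kg of TKI258 by mouth. Both were dosed daily for 14 days, starting 7 days after injection, and no age of the mice is stated. TKI258 (dovitinib) blocks several receptor tyrosine kinases, among them receptors for FGF, VEGF and PDGF. Each tumor was hybridised to 1 Affymetrix array, and values are log2 signals per probe set. The tumors were profiled whole, so that fewer cells of a type and less RNA per cell cannot be told apart, and every tumor comes from 1 cell line grown in a host that supplies the vessels, stroma and immune cells.

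Receptor tyrosine kinases and the insulin receptor activate PI3K, in part through adaptor proteins such as IRS1 and IRS2, and PI3K makes a membrane lipid that recruits PDPK1 and AKT. AKT restrains the TSC complex, which frees RHEB to activate mTOR complex 1, and it phosphorylates FOXO factors, which then leave the nucleus. When the pathway is quiet, FOXO factors return to the nucleus and can induce genes of growth arrest, metabolism and feedback. Much of this control acts on proteins and lipids, which an expression array does not measure.

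The labelled tumor type was checked on carcinoma markers. The epithelial keratin genes Krt8 and Krt18 lay between 11.13 and 11.88 in the 6 tumors, far above the array medians of 6.38 to 6.44, and Epcam lay between 6.55 and 8.03. Krt19, Krt7, Cdh1, Cldn3 and Cldn4 lay between 6.59 and 10.12. Cldn7 lay below every array median, at 5.66 to 6.36. TKI258 replicate 3 stood apart from the other tumors, with correlations of 0.973 to 0.987 to the other arrays, against 0.986 to 0.993 among those 5. The mean of 8 B cell markers was 8.70 in that tumor, 6.88 in water replicate 1 and 4.77 to 4.89 in the other 4 tumors. The mean of 10 adipocyte markers was 7.27, 6.27 and 6.77 in water replicates 1 to 3 and 7.29, 7.97 and 8.74 in TKI258 replicates 1 to 3. Keratinocyte markers (7 genes) averaged 7.41 and 7.05 in water replicates 2 and 3 and 4.97 to 5.08 in the other 4 tumors. The neutrophil list (8 genes) did not overlap between the groups, at 7.18 to 7.69 in water and 6.32 to 7.11 in TKI258 tumors.

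No member passed limma's test with p-values adjusted over all 34760 probe sets, and neither did any other probe set (0, or 0%, at adjusted p under 0.05). The smallest adjusted p of a member was 0.484. At an unadjusted limma p under 0.05, 2 of 37 members were higher in TKI258 tumors (5.41%, against 3.79% of all genes) and 1 was lower (2.70%, against 3.35%). The TKI258 tumors lay wholly above the water tumors for 2 members (5.41%, against 8.66% of all genes) and wholly below them for 4 (10.8%, against 6.49%). The share of members with an unadjusted p under 0.05 was thus near that of all genes. The 3 members past the unadjusted threshold were Irs1 and Sesn3, both higher, and Ccng2, lower, and their 95% intervals, which are not adjusted for the number of probe sets, exclude 0. The other members are given with their differences, since a p that misses the threshold does not show that the groups were alike. The sign of the difference turned under at least 1 alternative for Irs2, Pik3ca, Pik3cd, Pik3cg, Inpp4b, Inpp5d, Phlpp1, Pdpk1, Gsk3b, Mtor, Rptor, Rictor, Eif4ebp1, Sesn1 and Klf9, and held for the other 22 members.

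**Figure D1:**
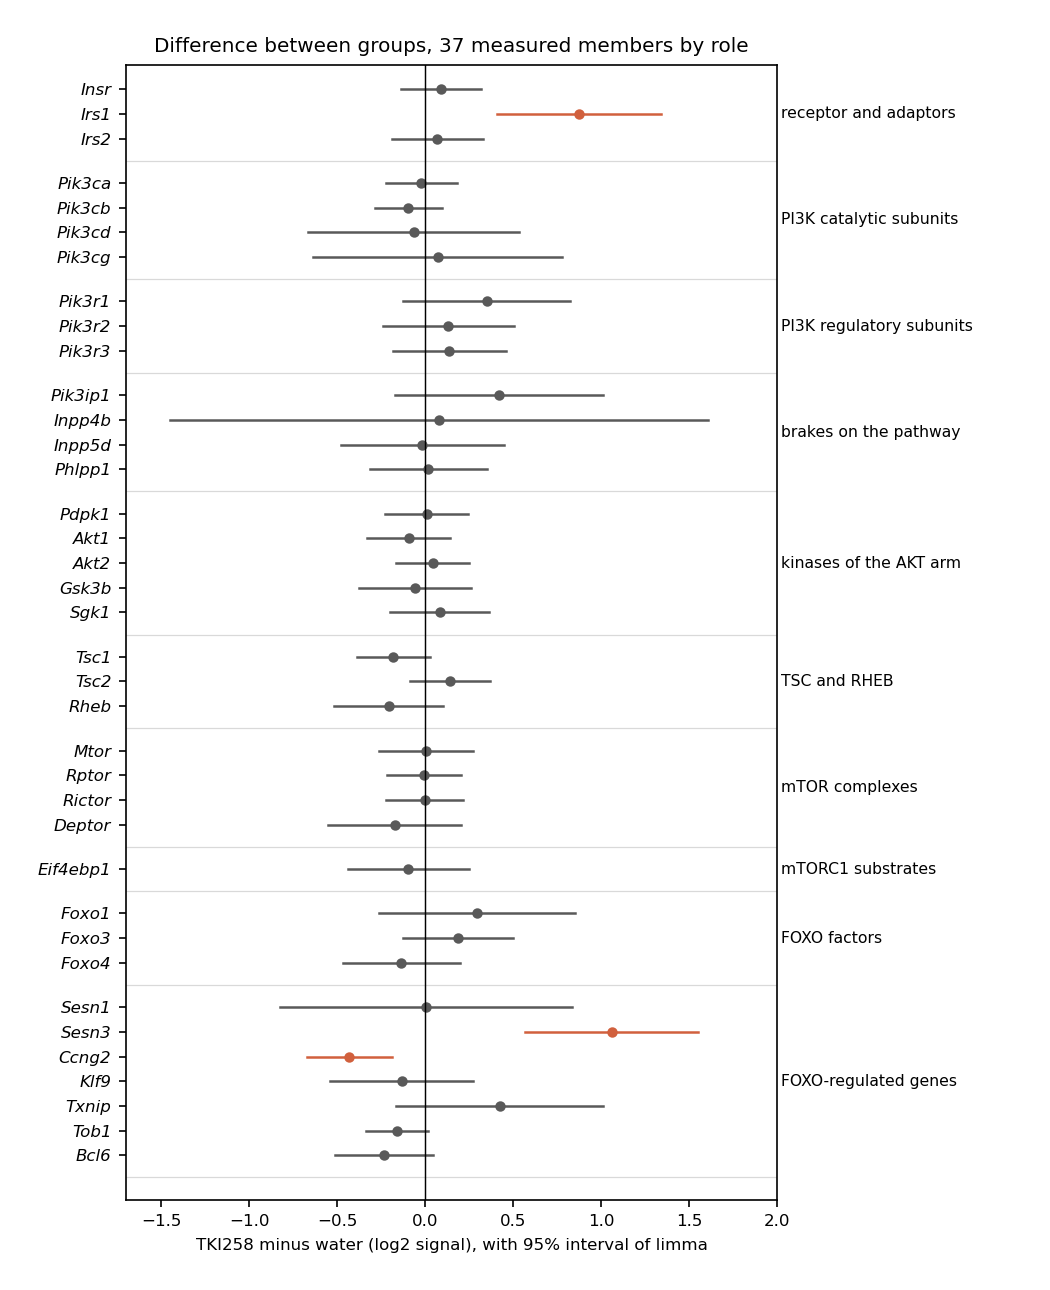
Difference between TKI258 and water tumors for the 37 measured members, ordered by role. Points are log2 differences (TKI258 minus water), lines are the 95% intervals of the limma fit (3 tumors per group), and the 3 members with an unadjusted limma p under 0.05 (Irs1, Sesn3, Ccng2) are in orange. Among the components the interval of Irs1 alone excludes 0, and that of Inpp4b is the widest.

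The promoter windows of those 3 genes, and of 2 FOXO-regulated genes that hold a full forkhead motif, are shown because forkhead factors such as FOXO bind a short recurrent sequence. Each is the stretch of 250 bases before the annotated transcription start from RefSeq, mouse build GRCm38.p6, written 5′ to 3′ in the direction of the gene. Capitals mark GTAAACA, the forkhead motif, or, where only that part is present, its core AAACA, each searched on both strands (as TGTTTAC and TGTTT on the other). Every match to the longer motif also holds the core. The windows are Irs1 at chr1:82291440-82291689 (minus strand), Sesn3 at chr9:14276051-14276300 (plus), Ccng2 at chr5:93267323-93267572 (plus), Txnip at chr3:96557707-96557956 (plus) and Klf9 at chr19:23140976-23141225 (plus).
Irs1: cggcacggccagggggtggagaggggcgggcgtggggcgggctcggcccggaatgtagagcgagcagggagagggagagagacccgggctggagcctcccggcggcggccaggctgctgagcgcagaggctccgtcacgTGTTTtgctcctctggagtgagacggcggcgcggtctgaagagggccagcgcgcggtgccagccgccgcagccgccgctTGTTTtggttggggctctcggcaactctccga
Sesn3: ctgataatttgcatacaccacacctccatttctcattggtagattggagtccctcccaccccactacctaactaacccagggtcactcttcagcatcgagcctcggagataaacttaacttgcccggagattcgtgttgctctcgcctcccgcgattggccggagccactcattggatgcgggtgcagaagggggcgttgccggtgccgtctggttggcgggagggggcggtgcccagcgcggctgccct
Ccng2: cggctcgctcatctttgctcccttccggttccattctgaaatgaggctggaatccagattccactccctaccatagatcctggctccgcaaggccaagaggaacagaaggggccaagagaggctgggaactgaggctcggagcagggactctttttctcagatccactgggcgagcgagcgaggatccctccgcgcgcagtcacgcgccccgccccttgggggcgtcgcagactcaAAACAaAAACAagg
Txnip: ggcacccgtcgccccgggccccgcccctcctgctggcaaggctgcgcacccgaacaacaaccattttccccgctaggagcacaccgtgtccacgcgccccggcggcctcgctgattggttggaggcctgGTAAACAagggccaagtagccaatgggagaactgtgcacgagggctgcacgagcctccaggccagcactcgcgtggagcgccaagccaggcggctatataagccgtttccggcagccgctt
Klf9: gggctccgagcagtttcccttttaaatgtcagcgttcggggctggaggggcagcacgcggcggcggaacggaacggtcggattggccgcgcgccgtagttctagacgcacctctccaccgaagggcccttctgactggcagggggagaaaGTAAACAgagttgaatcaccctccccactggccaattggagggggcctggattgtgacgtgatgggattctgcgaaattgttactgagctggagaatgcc

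GTAAACA occurred in 3.17% of the 32851 promoter windows of this length and in 3.54% of 27025 genes. Of the 38 members, 34 had a window in the table, and 4 of these held GTAAACA in at least 1 window. They were Txnip and Klf9 among 7 FOXO-regulated genes and Akt1 and Pik3cg among 27 components. Eif4ebp1, Foxo4, Deptor and Insr had no window. In Txnip the match began 121 bases before the start and in Klf9 100 bases before it. The Irs1 and Ccng2 windows each held 2 matches to the core alone, and the Sesn3 window held neither motif. The core occurred in 46.4% of windows and 50% of genes, and in 16 of the 34 members (12 of 27 components and 4 of 7 FOXO-regulated genes). A match is a description of letters, and its absence says nothing of sites elsewhere in the gene.

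Irs1 had the largest difference among the components. It encodes insulin receptor substrate 1, the docking protein through which the insulin and IGF1 receptors engage PI3K. Its signal was 7.93, 7.37 and 7.81 in water replicates 1 to 3 and 8.71, 8.76 and 8.26 in TKI258 replicates 1 to 3. Every TKI258 tumor lay above every water tumor, and the lowest water value was in replicate 2. The group values were 7.70 ± 0.30 and 8.58 ± 0.27 (SD, n = 3), a log2 difference of 0.87 ± 0.19 (SE) or 1.83-fold, with a 95% interval of 0.41 to 1.34. The limma p was 0.00314 before adjustment, rank 109 of 19937 genes, and 0.525 after it. A second Irs1 probe set was dim, between 3.92 and 4.34 on all arrays, and differed in the same direction by 0.23 ± 0.10. With both probe sets averaged, the Irs1 difference was 0.55. The mean of 9 carcinoma markers was 8.71, 8.03 and 8.48 in the water tumors and 8.80, 8.59 and 8.90 in the TKI258 tumors, and the mean of 6 fibroblast markers was 10.18 to 10.37 and 10.48 to 10.70. Fibroblast markers were higher in TKI258 tumors for 6 of 6 genes, carcinoma markers for 7 of 9 and adipocyte markers for 10 of 10, and their part in the Irs1 difference was not tested.

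The other genes at the top of the pathway differed little. Irs2, the second major substrate of the insulin receptor, differed by 0.07 ± 0.11 (95% interval -0.19 to 0.33). Insr, the insulin receptor gene, differed by 0.09 ± 0.10 (-0.14 to 0.32), and its second probe set gave 0.10. For both genes the groups overlapped, and a difference as large as that of Irs1 lies outside both intervals. No test compared Irs1 with Irs2 or Insr directly.

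Among the catalytic subunits of PI3K, Pik3ca and Pik3cb varied little between tumors and Pik3cd and Pik3cg varied more. Pik3ca, which encodes the alpha subunit and is expressed in most cells, was 10.10, 10.08 and 9.96 in water replicates 1 to 3 and 10.07, 10.03 and 9.98 in TKI258 replicates 1 to 3. The values of the groups intermingled, and the difference was -0.021 ± 0.084 (95% interval -0.22 to 0.18). Pik3cb, the beta subunit, was 8.64, 8.62 and 8.74 in water and 8.55, 8.57 and 8.59 in TKI258 tumors. All 3 TKI258 values lay below the water values by a narrow margin, and the difference of -0.095 ± 0.080 had a limma p of 0.272 before adjustment. Pik3cd and Pik3cg, the delta and gamma subunits, are known mainly from white blood cells. Pik3cd was 7.37 to 7.51 in the water tumors and 7.01, 7.15 and 7.99 in TKI258 replicates 1 to 3. Pik3cg was 7.47 to 7.76 in the water tumors and 7.24, 7.49 and 8.42 in the TKI258 tumors. In both cases TKI258 replicate 3 was the highest of the 6 tumors and TKI258 replicate 1 the lowest. The group differences were -0.06 ± 0.25 for Pik3cd and 0.07 ± 0.30 for Pik3cg, and -0.37 and -0.28 without TKI258 replicate 3.

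The regulatory subunits hold the catalytic subunits at the membrane receptors and keep them in check. Pik3r1, which encodes p85 alpha, was 8.63, 8.73 and 8.34 in water and 8.74, 8.68 and 9.33 in TKI258 tumors. TKI258 replicate 3 was again the highest, and the other TKI258 tumors lay within or just above the water range. The difference was 0.35 ± 0.20 (95% interval -0.12 to 0.82), and 0.145 without that tumor. Pik3r2 and Pik3r3 differed by 0.13 ± 0.16 and 0.14 ± 0.13. With single arrays left out they ranged from 0.015 (without TKI258 replicate 2) to 0.298 (without TKI258 replicate 3) for Pik3r2, and from 0.015 (without water replicate 3) to 0.234 (without water replicate 1) for Pik3r3. Pik3r3 was the only member below every array median on all 6 arrays (5.42 to 5.91).

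The brakes on the pathway gave the widest spread. Pik3ip1 encodes a membrane protein that binds and inhibits PI3K, and its signal was 7.48 to 7.71 in water and 7.84, 7.60 and 8.59 in TKI258 replicates 1 to 3, a difference of 0.42 ± 0.25. Inpp4b, which removes a phosphate from a lipid of the PI3K pathway, was 7.81, 6.47 and 7.39 in water and 6.57, 6.60 and 8.75 in TKI258 tumors. Both groups held high and low tumors, and the difference of 0.08 ± 0.64 had an interval of -1.45 to 1.61. Inpp5d encodes SHIP1, the lipid phosphatase of blood cells, and differed by -0.016 ± 0.194, with 9.23 in TKI258 replicate 3 against 8.57 in both other TKI258 tumors. Phlpp1, a phosphatase that dephosphorylates AKT, differed by 0.017 ± 0.140. None of the 4 separated the groups.

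Several of these genes were highest in the tumor with the highest lymphoid markers. In TKI258 replicate 3 the T and NK cell marker mean (9 genes) was 7.73, against 6.46 in water replicate 1 and 5.56 to 5.82 in the other 4 tumors, and the B cell mean was 8.70. Pik3cd, Pik3cg, Pik3r1, Pik3ip1, Inpp4b, Inpp5d and Foxo1 each had their highest value of all 6 tumors there, as did Pik3r3, Sesn3 and Txnip. Of these, Inpp4b, Pik3cd and Pik3r3 had their second highest value in water replicate 1, the tumor with the second highest B cell and T cell marker means. Other members had their lowest value of all 6 tumors in TKI258 replicate 3. They were Akt1, Pdpk1, Gsk3b, Mtor, Rictor, Eif4ebp1, Phlpp1, Pik3r2, Foxo4, Tsc1, Rheb, Ccng2, Klf9 and Bcl6. That array stood apart from the others, and the share of all genes with an extreme value there was not computed. B cell markers were above 0 in the group difference for 8 of 8 genes and T and NK cell markers for 9 of 9, none past the adjusted limma test. Without TKI258 replicate 3 the differences were 0.13 for Pik3ip1, -0.64 for Inpp4b, -0.24 for Inpp5d and 0.052 for Foxo1. Macrophage markers were lower in TKI258 tumors for 8 of 8 genes, with means of 9.84 to 10.42 in water and 9.74 to 9.92 in TKI258 tumors. Endothelial markers were lower for 6 of 7 genes (7.47 to 7.95 and 7.23 to 7.77). The part of lymphoid cells, macrophages and endothelium in these values was not tested.

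**Figure D2:**
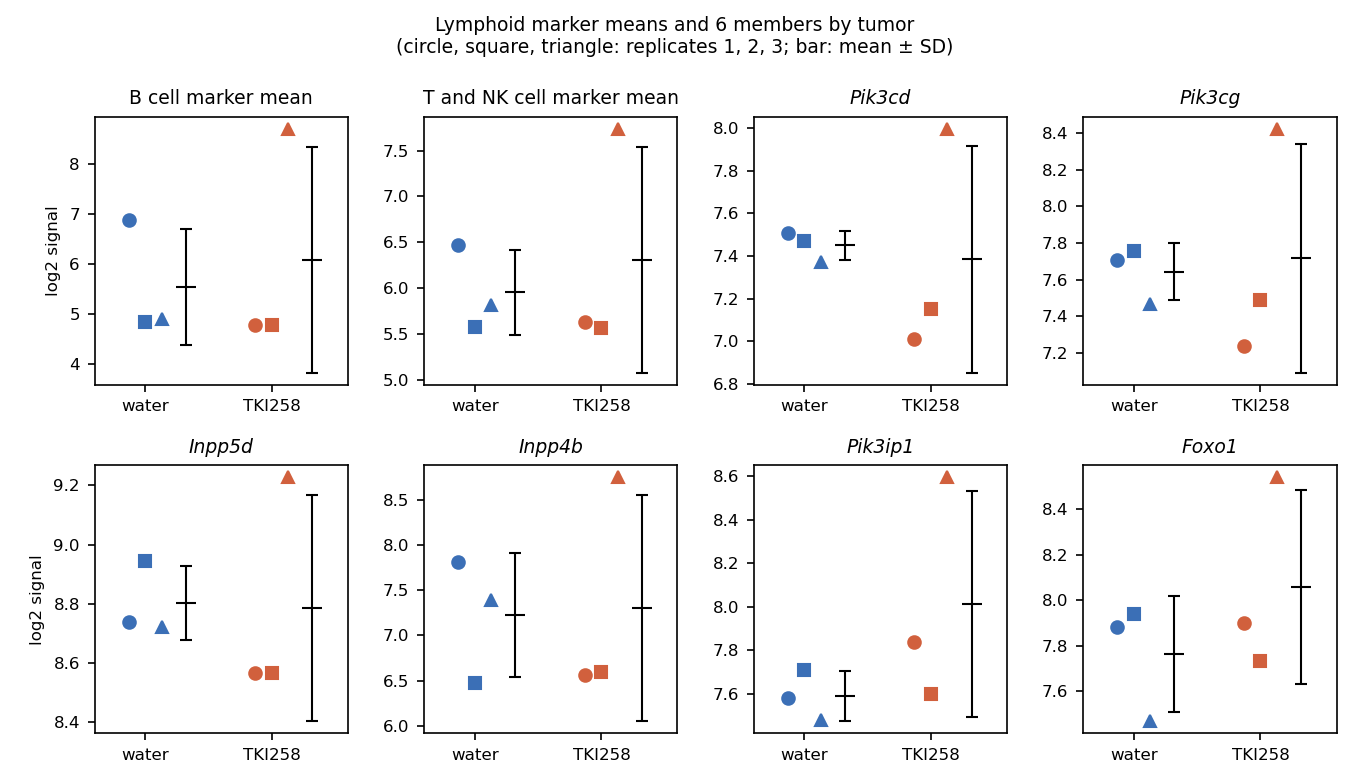
Log2 signal (y axis, a separate scale in each panel) in each water and TKI258 tumor for the mean of 8 B cell markers, the mean of 9 T and NK cell markers, and Pik3cd, Pik3cg, Inpp5d, Inpp4b, Pik3ip1 and Foxo1. Circles, squares and triangles are replicates 1, 2 and 3, and bars are the mean ± SD of 3 tumors. TKI258 replicate 3 is the highest point in every panel, while other members, not shown, were lowest in that tumor.

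The kinases of the AKT arm were close to level between the groups. Akt1 was 10.72, 10.64 and 10.73 in water and 10.67, 10.70 and 10.44 in TKI258 tumors, with overlapping groups and a difference of -0.093 ± 0.10 (95% interval -0.33 to 0.14). Akt2, known for its role in insulin-driven glucose uptake, differed by 0.04 ± 0.09, and its second probe set gave -0.03. Pdpk1, the kinase that activates AKT, differed by 0.008 ± 0.099, and Gsk3b, a kinase that AKT inhibits, by -0.06 ± 0.13. Sgk1, a relative of AKT whose transcript is induced by glucocorticoids and also by FOXO factors, differed by 0.08 ± 0.12. All 5 intervals lie between -0.373 and 0.365, and larger differences lie outside them.

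Between AKT and mTOR, the tuberous sclerosis genes went in opposite directions without passing the test. Tsc1, which stabilises the TSC complex, was 8.50, 8.55 and 8.45 in water and 8.38, 8.35 and 8.22 in TKI258 tumors. Every TKI258 tumor was below every water tumor, and the difference was -0.18 ± 0.09 (95% interval -0.39 to 0.025), with an unadjusted limma p of 0.0753. Tsc2, which carries the activity of the complex toward RHEB, differed by 0.14 ± 0.09 with overlapping groups. Rheb, the small GTPase that activates mTOR complex 1, differed by -0.21 ± 0.13, with its lowest value (9.87) in TKI258 replicate 3 against 10.20 to 10.40 in the other tumors, and by -0.079 without that tumor.

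The mTOR kinase and the scaffolds of its complexes were close to 0 in their differences. Mtor was 8.95, 8.70 and 8.75 in water and 8.87, 8.89 and 8.65 in TKI258 tumors. These ranges nearly coincide, and the difference was 0.007 ± 0.112 (95% interval -0.26 to 0.28). Rptor, the scaffold of mTOR complex 1, differed by -0.005 ± 0.088 and Rictor, that of complex 2, by -0.003 ± 0.092. Deptor, an inhibitor of both complexes, differed by -0.17 ± 0.16. Eif4ebp1, a translation repressor that mTOR complex 1 inactivates, differed by -0.095 ± 0.144. All 5 intervals include 0.

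Transcripts of the FOXO factors did not separate the groups either. Foxo1 was 7.88, 7.94 and 7.47 in water and 7.90, 7.73 and 8.54 in TKI258 tumors, with a difference of 0.29 ± 0.23. Foxo3 was 8.46, 8.74 and 8.55 in water and 8.95, 8.80 and 8.56 in TKI258 tumors. TKI258 replicates 1 and 2 were above all water tumors and replicate 3 was not, and the difference was 0.19 ± 0.13 (95% interval -0.13 to 0.50). Foxo4 differed by -0.14 ± 0.14. The array gives no view of whether these factors were phosphorylated or in the nucleus.

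Among the FOXO-regulated genes, Sesn3 had the largest difference of all members. It encodes sestrin 3, a stress protein that FOXO factors induce and that lowers mTOR complex 1 activity. Its signal was 8.99, 8.19 and 8.68 in water replicates 1 to 3 and 9.55, 9.66 and 9.83 in TKI258 replicates 1 to 3. Every TKI258 tumor lay above every water tumor, and the TKI258 tumors lay closer together. The group values were 8.62 ± 0.41 and 9.68 ± 0.14 (SD, n = 3), a log2 difference of 1.06 ± 0.21 or 2.09-fold, with a 95% interval of 0.57 to 1.55. The limma p was 0.00153 before adjustment, rank 52 of 19937 genes, and 0.484 after it. The order of the 6 tumors by Sesn3 was the same as their order by adipocyte marker mean, from water replicate 2 up to TKI258 replicate 3. In water replicate 1 and TKI258 replicate 1, where the adipocyte means were 7.27 and 7.29, Sesn3 stood at 8.99 and 9.55. The adipocyte list and this pair of tumors were singled out after the values were seen. The pair is 1 tumor per group, and its B cell marker means were 6.88 and 4.78. The adipocyte markers were higher in TKI258 tumors for 10 of 10 genes, and their part in the difference was not tested. Without TKI258 replicate 3 the Sesn3 difference was 0.99. Sesn1, the second sestrin gene of the set, differed by 0.005 ± 0.349, with 7.92 to 9.17 in water and 8.26 to 9.08 in TKI258 tumors.

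Ccng2 differed in the opposite direction. It encodes cyclin G2, an unusual cyclin linked to cell cycle arrest that FOXO factors are known to induce. Its signal was 9.78, 9.85 and 10.05 in water and 9.52, 9.46 and 9.40 in TKI258 tumors. All TKI258 tumors lay below all water tumors and close together. The group values were 9.89 ± 0.14 and 9.46 ± 0.06 (SD, n = 3), a log2 difference of -0.43 ± 0.10 with a 95% interval of -0.67 to -0.19, so that the level was 1.35-fold lower. The limma p was 0.00401 before adjustment, rank 125 of 19937 genes, and 0.533 after it. The order of the 6 tumors by Ccng2 was the same as their order by neutrophil marker mean (7.18, 7.62 and 7.69 in water and 7.11, 6.88 and 6.32 in TKI258 replicates 1 to 3). The neutrophil list was singled out after the values were seen. Both measures separate the groups, so only the order within each group could differ. The adipocyte marker mean gave the reverse order, except that water replicates 2 and 3 changed places. Neutrophil markers were lower in TKI258 tumors for 6 of 8 genes and keratinocyte markers for 7 of 7, and their part in the Ccng2 difference was not tested.

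The remaining FOXO-regulated genes included both lower and higher means, none past the adjusted limma test. Tob1, an antiproliferative gene, was 8.51, 8.53 and 8.50 in water and 8.36, 8.34 and 8.36 in TKI258 tumors. The groups did not overlap and were each very tight (SD 0.017 and 0.012), and the small difference of -0.16 ± 0.08 had an unadjusted limma p of 0.0727. Bcl6, a transcriptional repressor, was 8.54 to 8.88 in water and 8.45 and 8.38 in TKI258 replicates 2 and 3, with TKI258 replicate 1 inside the water range. The Bcl6 difference was -0.23 ± 0.12. Klf9, a Krüppel-like factor also induced by glucocorticoids, differed by -0.13 ± 0.17. Txnip, which binds thioredoxin and limits glucose uptake, was 10.74, 10.60 and 10.19 in water and 10.45, 11.02 and 11.33 in TKI258 tumors. TKI258 replicate 1 lay within the water range, and the difference was 0.42 ± 0.25 (95% interval -0.17 to 1.01), or 0.23 without TKI258 replicate 3. Within the TKI258 group Txnip was ordered as the adipocyte marker mean (7.29, 7.97 and 8.74), but not within the water group.

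**Figure D3:**
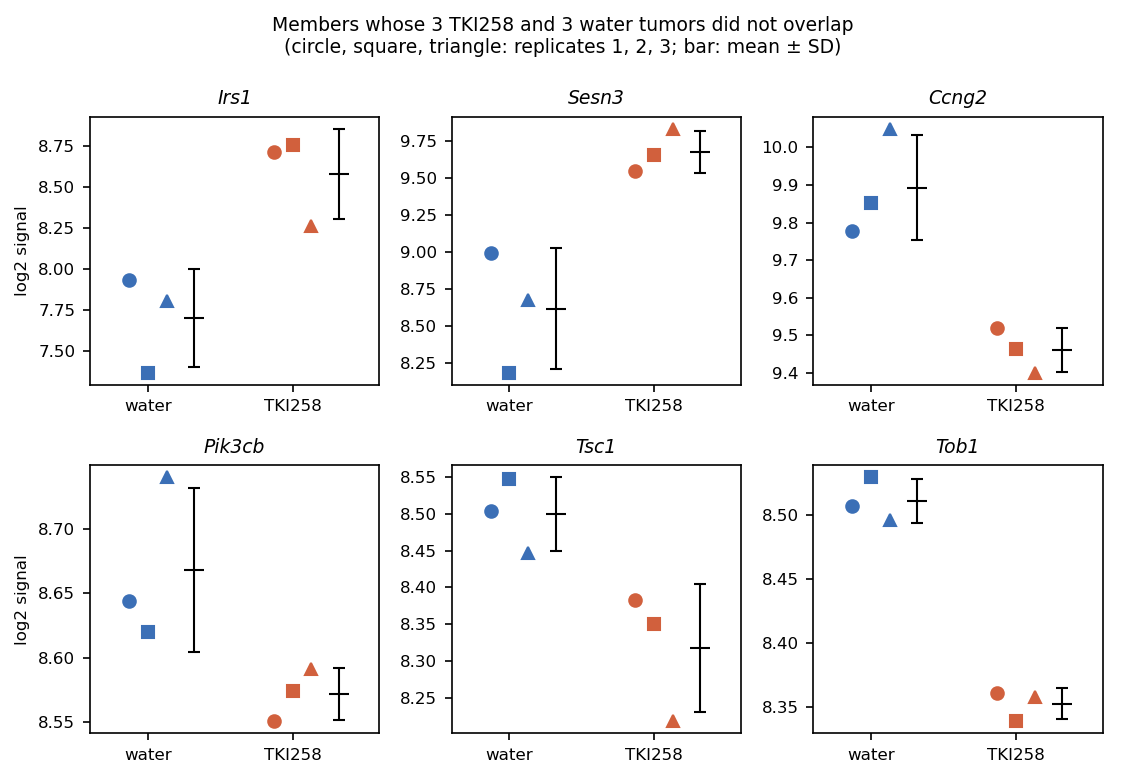
Log2 signal (y axis, a separate scale in each panel) of the 6 members whose TKI258 and water tumors did not overlap. Circles, squares and triangles are replicates 1, 2 and 3 of each group, and bars are the mean ± SD of 3 tumors. Irs1 and Sesn3 were higher in TKI258 tumors and Ccng2, Pik3cb, Tsc1 and Tob1 lower, with the differences of Pik3cb, Tsc1 and Tob1 all under 0.25.

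Set against each other, the pathway components and the FOXO-regulated genes had nearly the same mean difference. Sgk1, Insr, Irs2 and Pik3ip1 were counted as components here, and as FOXO-regulated genes in alternatives. The mean over the 30 components was 8.66, 8.63 and 8.59 in water and 8.63, 8.70 and 8.75 in TKI258 tumors, a difference of 0.06. The mean over the 7 FOXO-regulated genes was 9.05, 9.14 and 8.91 in water and 9.02, 9.09 and 9.21 in TKI258 tumors, a difference of 0.08. The gap between these differences was 0.015, below the SD of the gap among tumors (0.094 in water and 0.041 in TKI258). With the median over genes in place of the mean, the FOXO-regulated genes stood at -0.13 and the components at 0.013, a gap of -0.145. The mean of the FOXO-regulated genes includes Sesn3 alone at 1.06, while 4 of the 7 were below 0.

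Of the components, 26 of 30 (86.7%) differed by less than 0.25 in either direction, as did 86.3% of all genes. Of the FOXO-regulated genes, 4 of 7 (57.1%) did. The highest and lowest differences of all members, Sesn3 and Ccng2, were both in the FOXO-regulated group, and 3 of the 7 did not overlap between groups (1 higher, 2 lower), against 3 of 30 components (1 higher, 2 lower). Of all genes, 8.66% did not overlap and were higher and 6.49% did not overlap and were lower. The median over all 37 members was 0.007 and that over all genes 0.023. These counts are descriptions of a small chosen list, and no test of the list was made.

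**Figure D4:**
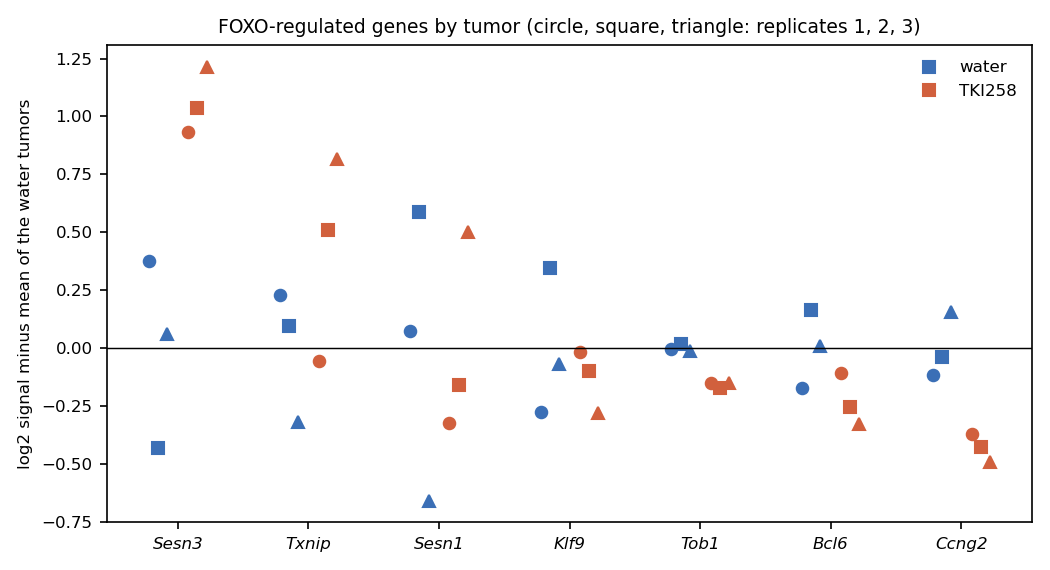
FOXO-regulated genes in each tumor, as log2 signal minus the mean of the 3 water tumors (y axis), ordered by the difference between groups (x axis). Blue marks are water and orange marks TKI258 tumors, with circles, squares and triangles for replicates 1, 2 and 3. Sesn3 lies above all water tumors in every TKI258 tumor, Ccng2 and Tob1 lie below all water tumors, and Sesn1 is scattered in both groups.

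Other genes of the pathway also differed little. Of 49 further PI3K, AKT and mTOR genes, 47 were measured and none passed limma's adjusted test. Of the 47, 20 were above and 27 below 0, and 43 (91.5%) differed by less than 0.25. Their median was -0.024, and 0.015 without water replicate 1 and TKI258 replicate 3. At an unadjusted limma p under 0.05, 0 of the 47 were higher (0%, against 3.79% of all genes) and 1 was lower (2.13%, against 3.35%). The lower gene was Flcn, which encodes folliculin, a regulator of mTOR complex 1 at the lysosome. Its unadjusted limma p was 0.0402, with a difference of -0.23 ± 0.09. Next in p were Rragc (-0.21 ± 0.11) and Lamtor5 (0.165 ± 0.086), both of the lysosomal platform of mTOR complex 1, and Nprl2 (-0.215 ± 0.12), of a complex that restrains it. Ddit4, which encodes REDD1, a stress-induced inhibitor of mTOR complex 1, differed by -0.13 ± 0.14.

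A further 25 genes known to be FOXO-regulated in at least 1 tissue also had no common direction. Of 23 measured, none passed limma's adjusted test, 14 were above and 9 below 0, and the median was 0.041, or -0.063 without TKI258 replicate 3. At an unadjusted limma p under 0.05, 1 was higher (4.35%, against 3.79% of all genes) and 2 were lower (8.70%, against 3.35%). The lower genes were Cited2, a transcriptional coregulator (-0.31 ± 0.10), and Gabarapl1, an autophagy gene (-0.34 ± 0.13). The higher gene was Pck1, which encodes an enzyme of glucose and glycerol synthesis (1.68 ± 0.61). Pck1 was 7.04, 5.81 and 6.39 in water and 7.06, 7.80 and 9.42 in TKI258 tumors, which is the order of the adipocyte marker means. Pdk4, an inhibitor of pyruvate use, followed with 0.73 ± 0.34. The adipocyte part of the Pck1 and Pdk4 values was not tested.

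Genes induced by glucocorticoids were set beside Sgk1 and Klf9, which share that control. Of 6 measured genes, of which Tsc22d3 is also in the FOXO list, 3 were above and 3 below 0, and none passed limma's adjusted test. Their median was 0.055, and it turned to -0.084 without TKI258 replicate 3, -0.079 without water replicate 1 and -0.196 without both. Dusp1, a phosphatase gene that is also an immediate early gene, had an unadjusted limma p of 0.0281 (-0.67 ± 0.24), and Per1, Zbtb16 and Mt2 differed by -0.25 ± 0.26, 0.27 ± 0.30 and 0.13 ± 0.19. Sgk1 and Klf9 themselves differed by 0.08 and -0.13.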

How the data were processed

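The authors deposited log2 signals per probe set, which the submitters' processing notes say were made by RMA, and per those notes affy and limma were used, with no version stated. The build behind the probe annotation is not given in the sources used here. This table held 34760 probe sets on 6 arrays. The platform annotation gave 21640 of them 1 gene, 1321 several and 11799 none, and genes were named only from the first kind.

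TKI258 was compared with water by limma 3.58.1 (lmFit and eBayes, R 4.3.3) on all probe sets, two-sided, with group as the only term and Benjamini-Hochberg adjustment over all of them at a threshold of 0.05. SE and 95% intervals are the moderated ones. An exact permutation test of 3 tumors against 3 cannot go below p = 0.1, so none is given. The number of arrays limits the precision. The sample titles call the tumors biological replicates.

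The members and gene lists were chosen with earlier results of these data known. Every member is named. Values by tumor are given for members with an unadjusted p under 0.05 or without overlap, for Pik3ca, Pik3r1, Akt1, Mtor, Foxo1, Foxo3 and Txnip, and, chosen after their values were seen, for other members where 1 tumor stands apart. From each wider list up to 4 genes with the smallest p are named, with Ddit4. Marker means are averages over the named cell type's genes. The limit of 0.25 was set after the data were seen. Promoter windows came from a RefSeq table matched by symbol.

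The fit was first tested on simulated data. At adjusted p under 0.05 it recovered 3.2% of simulated log2 changes of 0.5, 58.8% of those of 1.0 and 92.0% of those of 2.0. The absence of a call thus says little about differences of 0.5 or smaller. The alternatives were quantile normalization, median centring, filters on low signal and low variance, a replicate block, a trend and robust prior, array weights, arrays left out, averaged probe sets, a threshold of 0.1, and other assignments of FOXO-regulated genes. These assignments counted Sgk1, or Insr, Irs2 and Pik3ip1, as FOXO-regulated.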

Additional observations from a re-analysis of the deposited data

How the results depend on the processing

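No member passed limma's adjusted test under any alternative run. The adjusted p ranged from 0.296 to 0.798 for Irs1, from 0.305 to 0.798 for Sesn3 and from 0.378 to 0.809 for Ccng2, and these 3 kept their direction throughout. Over all probe sets 2 passed with the low-variance filter and 1 without the pair of water replicate 1 and TKI258 replicate 3, and 0 to 3 passed with single arrays left out (3 without water replicate 1), none of them members. Of the 37 members, 22 kept their sign under all alternatives run and 15 did not. The replicate block (0 members passing) left every difference as it was, since the groups are balanced. The sample titles state no pairing of tumors with the same number. The correlations of their deviations from the group means were -0.232, 0.186 and 0.009, and water replicate 1 correlated best with TKI258 replicate 3 (0.309).

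The sign turned with array weights for Pik3ca (0.005), Pik3cg (-0.138), Inpp4b (-0.543), Gsk3b (0.040), Rictor (0.006), Sesn1 (-0.019) and Klf9 (0.004). It turned with median centring for Phlpp1 (-5.3e-05), Pdpk1 (-0.009), Mtor (-0.011) and Sesn1 (-0.013), and with quantile normalization for Pik3ca (0.008), Inpp5d (0.020), Rptor (0.029) and Rictor (0.030). Without that pair of tumors, the highest in B cell markers, it turned for Pik3ca (0.026), Pik3cg (-0.249), Inpp4b (-0.349), Rptor (0.036), Rictor (0.086) and Sesn1 (-0.206). With single arrays left out the ranges that cross 0 were -0.031 to 0.126 (Irs2), -0.067 to 0.005 (Pik3ca), -0.368 to 0.124 (Pik3cd), -0.281 to 0.311 (Pik3cg), -0.644 to 0.446 (Inpp4b), -0.236 to 0.094 (Inpp5d), -0.114 to 0.126 (Phlpp1), -0.071 to 0.062 (Pdpk1), -0.134 to 0.073 (Gsk3b), -0.044 to 0.086 (Mtor), -0.052 to 0.032 (Rptor), -0.048 to 0.050 (Rictor), -0.197 to 0.014 (Eif4ebp1), -0.325 to 0.298 (Sesn1) and -0.270 to 0.040 (Klf9). The causes were not tested. The gap between FOXO-regulated genes and components was -0.145 with medians in place of means, and lay between -0.027 and 0.065 under the other alternatives. The filters on low signal and low variance left some members out, which then have no value. With 3 tumors a group, single small differences are not resolved. Pik3r3 lay below the median of every array, and the second Irs1 probe set lay below the lower quartile of every array.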
